A study of Mus musculus with 8 samples.

Results

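The Slit ligands, their Robo receptors and the Slit-Robo GTPase-activating proteins (srGAPs) were examined in RNA-seq of mouse ventricles at embryonic day 15.5. The genes were taken by symbol: Slit1, Slit2, Slit3, Robo1, Robo2, Robo4, Srgap1, Srgap2 and Srgap3. Each of these 9 symbols matched 1 of the 53465 Ensembl genes in the deposited table, and 8 of the 9 passed the filter on low counts that left 15388 genes for testing. Slit1 did not pass. The list was drawn up with the WT against mutant fold changes of these libraries known, and is treated as selected on them, so the values in that contrast are given as a description and support no claim about the family.

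Slits are large secreted proteins that bind Robo receptors on the cell surface, with heparan sulfate as a cofactor. The srGAPs bind the cytoplasmic tail of Robo and connect the receptor to the actin cytoskeleton. The pathway is best known for repelling axons. In the heart, it is known for roles in chamber wall, septum and valve formation and in the alignment of cardiac cells, and Robo4 is known as a receptor of endothelial cells.

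The control group held 4 libraries of WT ventricles. The other group held 4 libraries with the genotype label Nrg-1flox;Cdh5-CreERT2. In that line, the floxed gene is Nrg1, which encodes the growth factor neuregulin-1, and the tamoxifen-inducible Cre is driven by the promoter of Cdh5, an endothelial gene. Deletion is therefore directed at endothelial cells, while the tissue sequenced was ventricle with all of its cell types. Per the series description, each replicate was 1 ventricle. The strain, the tamoxifen schedule and whether WT embryos received tamoxifen or carried Cre are not given in the sources used here. Nothing in the labels says that the libraries came from separate litters, so the spread given here is the spread between libraries.

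The libraries held 16761763 to 24144272 expected counts, and labelled-mutant library 4 was the shallowest. Nrg1 was at 4.08 to 5.46 CPM (counts scaled to the size of the library) in WT and at 5.36 to 6.82 CPM in the group labelled as mutant. It was thus not lower where it was meant to be deleted, although gene-level counts hold transcripts of every cell type and exon. Its log2 fold change was 0.34 (SE 0.12, edgeR adjusted p = 0.311), and the groups overlapped. Because these counts do not show the loss that the label names, the group is called labelled-mutant throughout. In 7 of the 8 libraries, Xist and 4 summed genes of the Y chromosome (Uty, Ddx3y, Kdm5d and Eif2s3y) both exceeded 20 counts. Xist is a transcript of female cells and the Y-linked genes are of male cells, so these values go against 1 ventricle per replicate, and the number of embryos behind each library is uncertain. The Y-linked sum was 69.3 to 171 CPM in WT and 42.9 to 120 CPM in labelled-mutant libraries. Of the markers used to check the tissue, 6 cardiomyocyte genes summed to 35170 to 39066 CPM over the libraries, and 4 atrial genes to 1530 to 1755 CPM. Most of the atrial sum was Myl4, at 1232 to 1441 CPM. Myl7 was at 231 to 298, Kcnj3 at 11.5 to 18.2 and Sln at 3.74 to 10.5 CPM. Among the genes tested, 81 (0.526%) passed a false discovery rate (FDR) of 0.05 in edgeR's quasi-likelihood test, 0.214% lower and 0.312% higher in labelled-mutant libraries, and 6.05% had group values that did not overlap.

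Slit2 and Slit3 each carry a microRNA inside an intron. The hairpin Mir218-1 lies in the intron between exons 14 and 15 of Slit2, and Mir218-2 lies between exons 14 and 15 of Slit3, both on the strand of the host gene. Each hairpin gives the same mature miR-218-5p, which is at chr5:48223966-48223986 in Slit2 and at chr11:35616840-35616860 in Slit3 (GRCm38.p6, plus strand). The sequence is shown because its seed, bases 2 to 8 in capitals, has matches in receptor transcripts of the family. Sequences of miRNAs and promoters are from RefSeq on GRCm38.p6.
mmu-miR-218-5p: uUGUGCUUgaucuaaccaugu

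The letters AAGCACA, the reverse complement of the seed, were searched in the 3′ UTR of the longest coding transcript of each member, on the transcript strand alone. A match followed by A, which makes AAGCACAA, was counted as an 8-base match. Robo1, Robo2 and Srgap2 each held 1 match of 8 bases. The Robo1 match is at chr16:73045348-73045355 on the plus strand, the Robo2 match at chr16:73895358-73895365 on the minus strand and the Srgap2 match at chr1:131286521-131286528 on the minus strand (GRCm38). The 3 sites are printed from the transcript sequence with the match in capitals.
Robo1 site: tttggttttaaAAGCACAAtcactaaa
Robo2 site: tatttggtgatAAGCACAAatctctac
Srgap2 site: ggaaaaatccaAAGCACAActtcaaaa

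Slit2 held 2 matches of 7 bases, and Robo2 and Srgap3 held 1 each. No match was found in Slit1, Slit3, Robo4 or Srgap1. Of 20880 genes with a 3′ UTR searched in the same way, 13.5% held the 7-base match and 3.84% the 8-base match. These shares are over 3′ UTRs of every length, so they do not measure an enrichment in the family. Members with a match had 3′ UTRs of 1733 to 4817 bases, and those without had 365 to 4407. The matches are of letters and are not measured sites. The mature miRNA was not measured in these poly(A) libraries: the hairpin gene Mir218-1 had at most 1 expected count in a library, and Mir218-2 is listed at 0 in every library.

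Of the family, Slit2 was the most abundant per transcript length. In WT, it was at 14 ± 1.07 CPM per kb of its longest coding transcript (SD, n = 4). Robo1 followed at 8.8 ± 0.578, Srgap2 at 7.12 ± 0.121, Slit3 at 6.15 ± 0.594, Robo4 at 5.78 ± 0.248 and Srgap1 at 4.25 ± 0.0845 CPM per kb (SD, n = 4). Robo2 was lower, at 1.82 ± 0.204 CPM per kb, and Srgap3 was at 0.64 ± 0.0466 CPM per kb (SD, n = 4). Slit1, a ligand known mainly from the nervous system, was at 0.0255 ± 0.0148 CPM per kb (SD, n = 4). Neighbours in this order did not overlap between their WT libraries, except Slit3 and Robo4. The order was the same in the labelled-mutant group.

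The order depends on which length is used. The Slit2 gene has 23 transcripts listed in the deposited table, and its annotated exonic bases add up to 25433, against 9960 for the longest coding transcript. For Robo1 the table lists 1 transcript, while the annotation used for lengths holds 9, with 16511 exonic bases in all and 7563 in the longest coding transcript. Per kb of all annotated exonic bases, the WT level of Slit2 was 5.47 CPM, Robo4 5.4, Slit3 5.3, Srgap2 4.55, Robo1 4.03 and Srgap1 3.62 CPM. On that scale Robo1 moved from position 2 to position 5 and Robo4 from position 5 to position 2. For Robo1 the added bases are of transcripts that the deposited table does not list. Its lower position there may thus reflect the annotation and not its level. Robo2, Srgap3 and Slit1 kept the last positions on both scales.

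**Figure D1:**
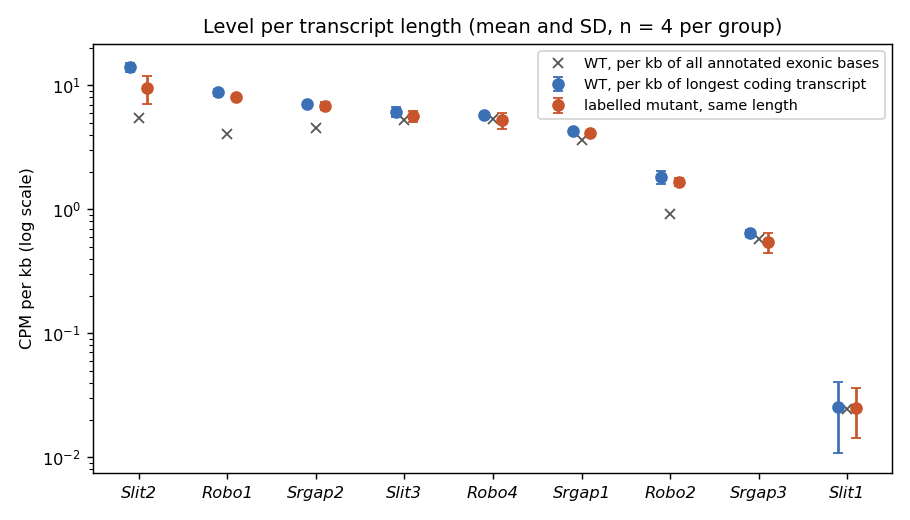
Mean level of each gene in CPM per kb on a log axis, in order of the WT level. Circles are WT (blue) and labelled-mutant (orange) means with SD over 4 libraries per kb of the longest coding transcript, and crosses are WT means per kb of all annotated exonic bases. Slit2 is highest at 14 CPM per kb in WT and Slit1 lowest at 0.0255.

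Turning to the contrast between groups, each of the 8 members tested had a log2 fold change (labelled-mutant over WT) below 0. Their median was -0.13, while the median over all 15388 genes was -0.0012 and 50.6% of them were below 0. Because the members were listed with these fold changes known, their shared direction is no evidence about the family. Apart from Slit2, the differences were small, from -0.24 to -0.05. None of the 8 passed an FDR of 0.05 in edgeR's quasi-likelihood test, in which 0.526% of all genes passed. At an unadjusted p below 0.05 there were 2 of the 8, Slit2 and Robo1, where 10.5% of all genes reached that level. With DESeq2 and limma voom 0 of the 8 passed, and with edgeR's likelihood ratio test 1, Slit2, passed. The values of the groups overlapped for each of the 8. In whole ventricles, fewer cells of a type and less RNA per cell cannot be told apart.

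**Figure D2:**
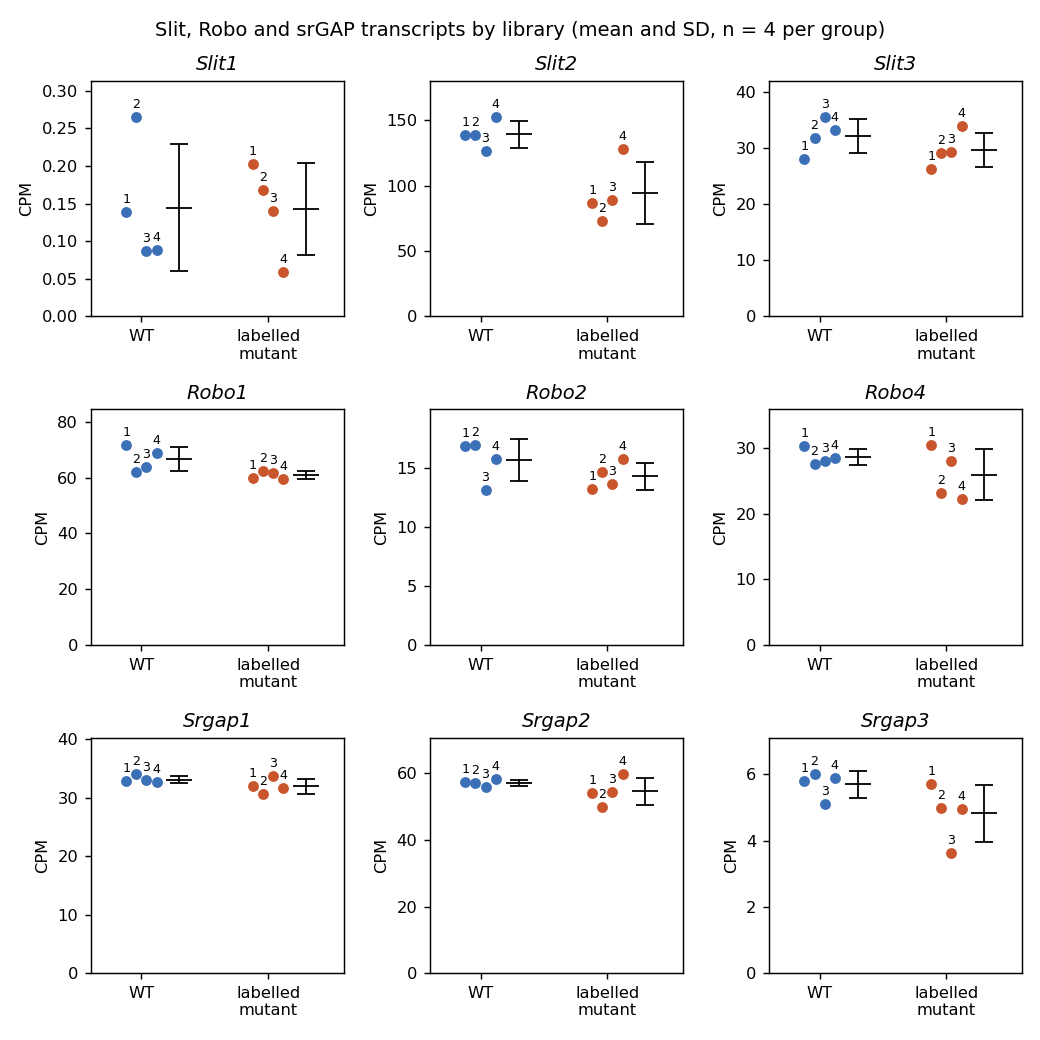
CPM of each gene in every library, with a panel per gene and its own axis from 0. Points are libraries, numbered 1 to 4 in each group, and bars beside them are the mean and SD (n = 4). Slit2 was at 72.9 to 89.3 CPM in labelled-mutant libraries 1 to 3 and at 128 CPM in library 4, while other genes differ little between the groups.

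The ligands were considered first. Slit2 (ENSMUSG00000031558, chr5:47983138-48307733, plus strand) encodes the Slit with the highest level here. In WT libraries 1 to 4, Slit2 had 139, 139, 126 and 152 CPM, and it was at 87, 72.9, 89.3 and 128 CPM in labelled-mutant libraries 1 to 4. Labelled-mutant libraries 1 to 3 were below every WT library, but library 4 was above WT library 3, so the groups overlapped. The means were 139 ± 10.6 and 94.3 ± 23.6 CPM (SD, n = 4), and the log2 fold change was -0.57 (SE 0.126). Only 1.31% of all tested genes had a lower log2 fold change. The coefficient of variation was 7.66% in WT and 25.1% in labelled-mutant libraries, the largest of the 8 tested members in that group.

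Whether Slit2 passed the threshold depended on the filter, the test, the replicate block and 1 library. It passed with no filter on low counts, with the likelihood ratio test and with the replicate number as a block (edgeR adjusted p = 4.64e-07, 0.00335 and 0.0171). With no filter the log2 fold change was again -0.57, but its SE was 0.0721, beside 0.126 in the main fit and 0.189 with DESeq2. That small p thus reflects a smaller SE and not a larger difference. Slit2 also passed without library 4 of the labelled-mutant group, at a log2 fold change of -0.75. With any other library left out, it was -0.61 to -0.46 and did not pass. The Y-linked sum moved with Slit2 within the labelled-mutant group: library 4 was highest and library 2 lowest in both. With the log2 of that sum as a covariate, Slit2 had a log2 fold change of -0.34. By library, the Y-linked sum was 115, 69.3, 122 and 171 CPM in WT libraries 1 to 4. It was 68.3, 42.9, 58.5 and 120 CPM in labelled-mutant libraries 1 to 4. Labelled-mutant libraries 1 to 3 were thus below every WT library, as for Slit2, and library 4 lay within the WT range. Xist was at 134, 206, 140 and 0.176 CPM in WT and at 327, 282, 263 and 103 CPM in labelled-mutant libraries. The mix of male and female cells and the group label cannot be fully told apart here.

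Slit3 (ENSMUSG00000056427, chr11:35121224-35708507, plus strand) encodes a second Slit, known for roles in diaphragm and heart development. It was at 28.1, 31.7, 35.5 and 33.2 CPM in WT and at 26.3, 29.1, 29.3 and 33.8 CPM in labelled-mutant libraries. The groups overlapped, with library 1 lowest in both. The means were 32.1 ± 3.11 and 29.7 ± 3.11 CPM (SD, n = 4), and the log2 fold change was -0.12 (SE 0.0785). With the Y-linked covariate it was -0.04. It was -0.07 without WT library 3 or without labelled-mutant library 1, and -0.18 without labelled-mutant library 4. Within a library, the ratio of Slit2 to Slit3 CPM does not depend on the scaling between libraries. This ratio was 4.93, 4.37, 3.56 and 4.6 in WT libraries and 3.3, 2.5, 3.04 and 3.78 in labelled-mutant libraries. The groups overlapped only in that WT library 3 was below labelled-mutant library 4. Slit2 made up 78 to 83.1% of the summed Slit CPM in WT and 71.3 to 79.1% in labelled-mutant libraries.

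Slit1 (ENSMUSG00000025020, chr19:41600257-41743665, minus strand) had 1 to 6 expected counts per library, or 0.0869 to 0.265 CPM in WT and 0.0589 to 0.202 CPM in labelled-mutant libraries. At this depth a difference between the groups was not detectable. Markers of neurons and Schwann cells were likewise scarce. Of the 8 in that list, 3 passed the filter, and the list summed to 6.15 to 6.95 CPM in WT and 6.76 to 8.26 CPM in labelled-mutant libraries. The defining Schwann cell gene Sox10 was below 0.6 CPM in every library.

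Most markers of trabeculae, the muscular ridges of the inner ventricular wall, had log2 fold changes below 0 as Slit2 did. Of the 6 genes in that list (Nppa, Nppb, Bmp10, Gja5, Irx3 and Cpne5), 5 were lower and 0 passed. Their median log2 fold change was -0.19, with Cpne5 at -0.41 and Bmp10 at -0.55. At an unadjusted p below 0.05 there were 4 of the 6, beside 10.5% of all genes. Their summed level was 1958 to 2869 CPM in WT and 1807 to 2609 CPM in labelled-mutant libraries. Bmp10, a trabecular growth factor, was at 103, 117, 93.8 and 123 CPM in WT and at 76, 68.8, 59.9 and 95.5 CPM in labelled-mutant libraries. As for Slit2, library 4 was the highest of its group for Bmp10 in both groups. After centring on group means, Pearson's r of log2 CPM between Slit2 and Bmp10 was 0.76 over 8 libraries, which share depth and composition. It was 0.70 with the trabecular sum and 0.71 with the sum of the endothelial markers described with Robo4, so the relation was of like size for both sums. With the sum of 8 fibroblast markers it was 0.55. Most of the trabecular sum was Nppa, at 1495 to 2421 CPM over the libraries, so that r mainly reflects 1 gene. The part of these cell types in the Slit2 difference was not tested. Lower values were not particular to trabeculae: atrial genes were lower in 4 of 4 (median -0.27), mural in 6 of 7 (-0.15) and epicardial in 0 of 6 (0.1). Compact wall markers (Hey2, Mycn and Tbx20) were higher in 3 of 3, with a median of 0.09 and 0 passing. At an unadjusted p below 0.05 there were 2 of the 3, beside 10.5% of all genes. For Mycn and, only just, Hey2 the groups did not overlap, beside 3.07% of all tested genes in that direction. In the trabecular list this held for 1 gene, Cpne5, beside 2.98% of all tested genes in the lower direction.

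The receptors differed less than Slit2. Robo1 (ENSMUSG00000022883, chr16:72308306-73046095, plus strand), a broadly expressed Slit receptor, was at 71.5, 62.1, 63.8 and 68.8 CPM in WT and at 60, 62.4, 61.7 and 59.6 CPM in labelled-mutant libraries. WT library 2 was just below labelled-mutant library 2, and every other WT library was above the labelled-mutant group. The means were 66.6 ± 4.37 and 60.9 ± 1.34 CPM (SD, n = 4), and the log2 fold change was -0.13 (SE 0.044). It stayed between -0.16 and -0.09 in each of the 18 alternatives.

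Robo2 (ENSMUSG00000052516, chr16:73891839-74411825, minus strand) lies on the same chromosome as Robo1 and shares its role as a Slit receptor. It was at 16.8, 16.9, 13.1 and 15.7 CPM in WT and at 13.2, 14.6, 13.6 and 15.7 CPM in labelled-mutant libraries. WT library 3 was the lowest of the 8, so the groups overlapped over most of their range. The log2 fold change was -0.13 (SE 0.088), and without WT library 3 it was -0.21. The ratio of Robo1 to Robo2 CPM was 4.3 ± 0.484 in WT and 4.29 ± 0.355 in labelled-mutant libraries (SD, n = 4).

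Robo4 (ENSMUSG00000032125, chr9:37401897-37415115, plus strand) is the endothelial Robo, and the Cre is driven by an endothelial promoter. It was at 30.3, 27.5, 28.1 and 28.5 CPM in WT and at 30.4, 23.2, 27.9 and 22.2 CPM in labelled-mutant libraries. Labelled-mutant libraries 2 and 4 were below every WT library, while libraries 1 and 3 lay within or just above the WT range. The means were 28.6 ± 1.23 and 25.9 ± 3.88 CPM (SD, n = 4), and the log2 fold change was -0.14 (SE 0.0843). Leaving out 1 library moved it from -0.22 (without labelled-mutant library 1) to -0.08 (without labelled-mutant library 2 or 4).

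Most endothelial markers were likewise lower. Of 10 (Pecam1, Cdh5, Kdr, Tie1, Tek, Esam, Emcn, Cldn5, Erg and Egfl7), 8 were lower and 0 passed, and 7 had an unadjusted p below 0.05 (6 lower and 1 higher), beside 10.5% of all genes, with -0.12 as the median log2 fold change. For 5 of them, all lower, the ranges of the groups were separate, beside 2.98% of all tested genes in that direction. Their part in the Robo4 values was not tested. Their summed level was 1166 to 1190 CPM in WT and 1086 to 1153 CPM in labelled-mutant libraries. Robo4 is not in that sum. Its CPM equalled 2.36 to 2.58% of the sum in WT libraries and 2.68, 2.1, 2.57 and 1.93% in labelled-mutant libraries 1 to 4. Relative to the other endothelial genes, Robo4 was thus low in libraries 2 and 4 alone. Across the 8 libraries its centred r with the endothelial sum was -0.19.

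The srGAPs, GTPase-activating proteins that bind Robo tails, also overlapped between the groups. Srgap1 (ENSMUSG00000020121, chr10:121780991-122047315, minus strand) was at 32.6 to 34 CPM in WT and at 30.5 to 33.6 CPM in labelled-mutant libraries, with a log2 fold change of -0.05 (SE 0.0418) and a 95% confidence interval of -0.14 to 0.04. Without labelled-mutant library 2 it was -0.03, and without library 3 it was -0.08. Srgap2 (ENSMUSG00000026425, chr1:131285251-131527352, minus strand) was at 57.3, 57.1, 56 and 58.3 CPM in WT and at 54.1, 50, 54.4 and 59.9 CPM in labelled-mutant libraries. Labelled-mutant libraries 1 to 3 were below the WT range and library 4 above it. The log2 fold change of Srgap2 was -0.07 (SE 0.0464), and with the Y-linked covariate it was 0.0049. It was -0.03 without labelled-mutant library 2 and -0.12 without library 4. Srgap3 (ENSMUSG00000030257, chr6:112717971-112947266, minus strand), known mainly from the brain, had 77.9 to 136 expected counts per library. It was at 5.78, 6.01, 5.08 and 5.89 CPM in WT and at 5.71, 4.99, 3.64 and 4.94 CPM in labelled-mutant libraries, with a log2 fold change of -0.24 (SE 0.133). Labelled-mutant library 1 lay within the WT range and the other 3 below it. Without labelled-mutant library 3 the log2 fold change of Srgap3 was -0.12.

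Expected counts of Srgap1 and Srgap3 were not whole in 62.5% of the libraries, so some of their reads were divided with other genes. Srgap1 shares 131 exonic bases with Gm48804 on the same strand, and Srgap3 shares 150 with Gm44081 on the opposite strand. The counts of the Slit and Robo genes and of Srgap2 were whole in every library.

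**Figure D3:**
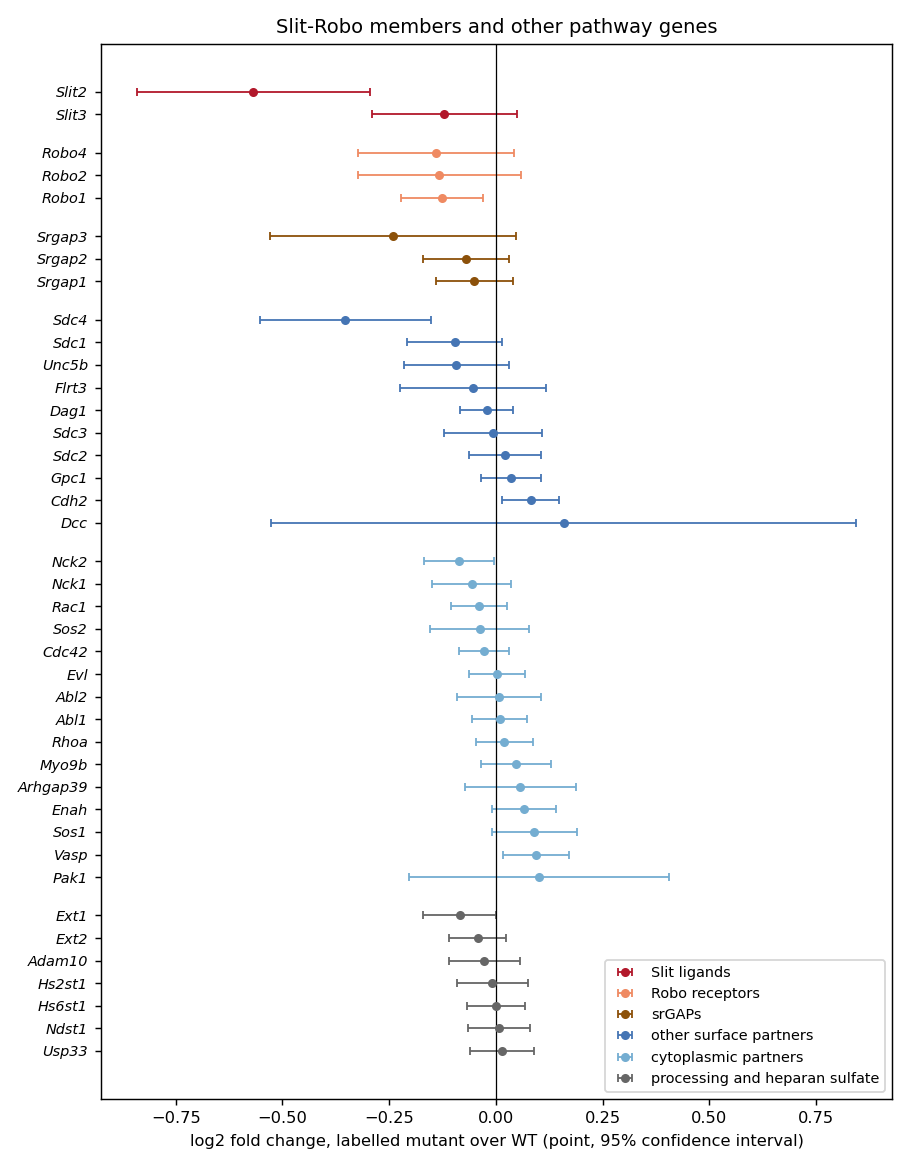
Log2 fold change (labelled-mutant over WT) of the 8 tested members and of 32 other pathway genes, on the x axis, with 95% confidence intervals from edgeR's fit over 4 libraries per group. Members, which were listed with these values known, lie between -0.57 and -0.05. The other genes lie on both sides of 0, from -0.35 (Sdc4) to 0.16 (Dcc).

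The other genes of the pathway lay on both sides of 0. Of a list of 33, 32 were tested, and 15 were lower and 17 higher, with a median log2 fold change of 0.0018. None passed in edgeR's quasi-likelihood test, beside 0.526% of all genes, and 4 had an unadjusted p below 0.05, beside 10.5% of all genes. With DESeq2 1 gene passed, Sdc4, as it did with edgeR's likelihood ratio test, and with limma voom 0 passed. Robo3, the divergent Robo of commissural axons, did not pass the filter and was at most at 0.177 CPM.

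Among surface partners, Sdc4, a heparan sulfate proteoglycan of focal adhesions, had the smallest p. It was at 26.8, 28.1, 23.5 and 27.9 CPM in WT and at 17.1, 22.3, 19.6 and 24.3 CPM in labelled-mutant libraries, with a log2 fold change of -0.35 (SE 0.0927, edgeR adjusted p = 0.134). As for Slit2, labelled-mutant library 4 was the highest of its group and the only one above WT library 3. Cdh2, the N-cadherin of cardiomyocyte junctions, was at 574 to 620 CPM in WT and at 626 to 634 CPM in labelled-mutant libraries, so that the groups did not overlap, beside 3.07% of all tested genes in that direction, and its log2 fold change of 0.08 had an edgeR adjusted p of 0.357. Dag1, the dystroglycan that binds Slit, was at 513 ± 9.19 and 506 ± 8.85 CPM (SD, n = 4), and the log2 fold change was -0.02 and an edgeR adjusted p of 0.871.

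Among cytoplasmic partners, Cdc42 and Rhoa, GTPases on which srGAPs can act, had the highest levels per kb of the longest coding transcript. Per kb of all exonic bases, Rac1 and Vasp were above Rhoa. The log2 fold changes of Cdc42 and Rhoa were -0.03 (SE 0.0274, edgeR adjusted p = 0.803) and 0.02 (SE 0.0308, edgeR adjusted p = 0.892). Vasp, an actin filament elongation factor, was at 0.09 (SE 0.0353, edgeR adjusted p = 0.356). Its groups did not overlap, but only just, with 125.57 CPM as the highest WT value and 125.66 CPM as the lowest labelled-mutant value. Of all tested genes, 3.07% were separate in that direction. Nck2, an adaptor, was at -0.09 (SE 0.0381, edgeR adjusted p = 0.451). Among processing enzymes, the protease Adam10 was at -0.03, and Ext1 and Ext2, which polymerize heparan sulfate, were at -0.08 and -0.04, with edgeR adjusted p-values of 0.876, 0.48 and 0.689.

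From library to library, the members varied together most closely for Slit2 and Srgap2. Over the 28 pairs of tested members, Pearson's r of log2 CPM, centred on the group means over 8 libraries, had a median of -0.04. Slit2 and Srgap2 had an r of 0.98 (Spearman's rho 0.98), and the next highest pair, Slit2 and Robo2, had 0.47. The lowest values were -0.71 for Slit3 and Robo4 and -0.53 for Srgap1 and Srgap3. The r of Slit2 and Srgap2 was 0.995 within the 4 WT libraries and 0.988 within the 4 labelled-mutant libraries, and 0.957 over the 7 libraries other than labelled-mutant library 4. The amplitudes differed: the highest library exceeded the lowest by 2.09 times for Slit2 and by 1.2 times for Srgap2. With the Y-linked sum, both genes had a centred r of 0.78 (Spearman's rho 0.43 for Slit2 and 0.5 for Srgap2). Within the labelled-mutant libraries r was 0.98 for each, and within WT it was 0.37 for each. WT library 3 had the lowest Slit2 and Srgap2 of its group but the second-highest Y-linked sum.

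**Figure D4:**
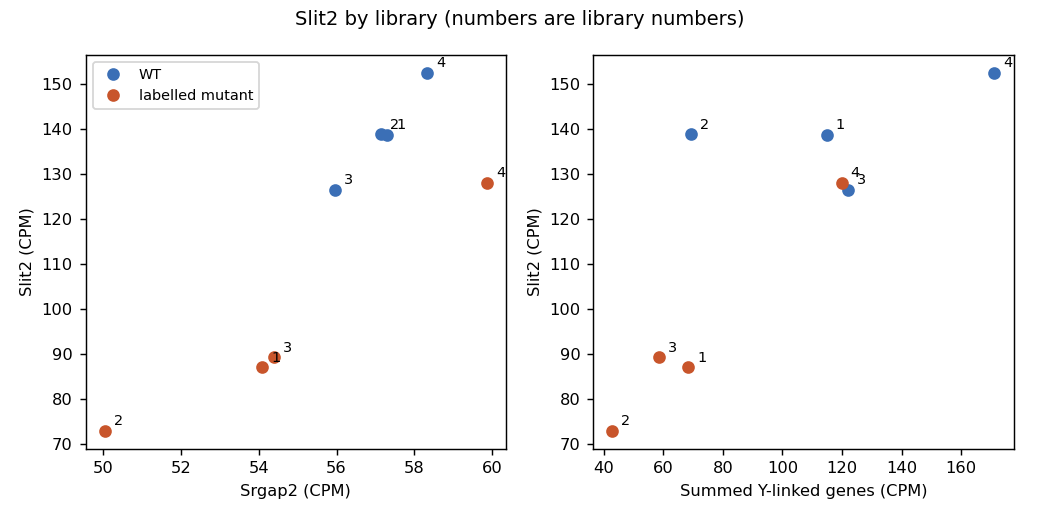
CPM of Slit2 (y axis) against CPM of Srgap2 (left) and against the summed CPM of the 4 Y-linked genes (right), with 1 point per library, blue for WT and orange for labelled-mutant, numbered within each group. Libraries with more Srgap2 tended to have more Slit2, with Slit2 at 138.6 and 138.8 CPM in WT libraries 1 and 2, which are in the opposite order for Srgap2. Labelled-mutant library 2 is lowest and library 4 highest of its group in each measure.

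The genes most like each member were sought by the same centred r among 11920 genes, over 8 libraries that share depth and composition. As the highest of so many, r values near 1 were found for every member and are given as a description. For Slit2, they were Srgap2, Lurap1 (0.98) and Ache (0.98), the acetylcholinesterase gene. For Slit3, they were C1qa (0.99), Egfr (0.97) and Slc39a7 (0.97). For Robo1, they were Zbtb40 (0.97), Bbip1 (0.96) and Sytl4 (0.95), and for Robo2, Ywhaz (0.99), Rcbtb1 (0.97) and Zkscan14 (0.97). Robo4 was most like Dph6 (0.98), Gpd1 (0.97) and Eif4ebp2 (0.96). Srgap1 was most like Tmem259 (0.98), Serf1 (0.97) and Zcchc3 (0.97), Srgap2 like Cpa4 (0.99), Slit2 and Runx1 (0.98), and Srgap3 like Fam102a (0.98), Rhoc (0.98) and Fbxo25 (0.97). Slit2 and Srgap2 were the only members to appear in another member's list. Spearman's rho was lower for some pairs: 0.69 for Slit2 and Lurap1, 0.71 for Srgap2 and Cpa4 and 0.79 for Srgap3 and Fbxo25. For the other genes named here rho was 0.83 to 1.

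Since Slit2 and Srgap2 varied together, the sequences just upstream of their starts are shown. The windows end before both the RefSeq and the GENCODE start, at chr5:47982905-47983137 on the plus strand for Slit2 and at chr1:131527362-131527611 on the minus strand for Srgap2 (GRCm38.p6). Capitals mark GGGCGG, a GC box, on either strand.
Slit2 upstream: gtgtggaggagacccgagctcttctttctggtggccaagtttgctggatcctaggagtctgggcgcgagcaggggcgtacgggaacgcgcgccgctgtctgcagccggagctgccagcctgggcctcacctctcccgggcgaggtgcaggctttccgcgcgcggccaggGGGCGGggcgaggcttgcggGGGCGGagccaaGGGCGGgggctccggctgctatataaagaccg
Srgap2 upstream: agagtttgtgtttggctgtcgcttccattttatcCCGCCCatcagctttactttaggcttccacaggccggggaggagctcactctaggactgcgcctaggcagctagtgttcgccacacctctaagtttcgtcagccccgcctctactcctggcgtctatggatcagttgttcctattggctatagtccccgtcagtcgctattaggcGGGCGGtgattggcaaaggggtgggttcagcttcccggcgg

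The Slit2 stretch held 3 GC boxes and the Srgap2 stretch 2. In RefSeq windows from 250 bases before to 50 after the start, 35.7% of 32851 windows held at least 1. Slit3 had 6 in its window, Srgap1 3 and Srgap3 1, and none was found in Robo1, Robo4 or the 3 windows of Robo2. The window of Slit2 held 30 CpG dinucleotides and that of Slit3 held 41, where the median over all windows was 7. The window of Robo4 held 2. The letters GGAAG, a core of ETS factor motifs, occurred 3 times each in the windows of Robo4, Srgap2, Srgap3 and 1 of the Robo2 windows, and 71.4% of all windows held them at least once. TGGGAA, a core recognised by the NOTCH effector RBPJ, was found once in Srgap3 and once in 1 of the Robo2 windows, beside 25.6% of all windows. TGACTCA, the AP-1 motif, was in none of the members' windows, beside 5.2% of all windows. Both strands were searched, and matches of different motifs may overlap. Slit1 had no entry. The windows follow RefSeq starts, which need not be the gene starts given above. That of Robo1 (chr16:72662899-72663198) lies inside the gene as given. The Robo2 windows at chr16:75092721-75093020 and chr16:75447244-75447543 lie upstream of the gene as given, and the RBPJ match of Robo2 is in the latter. These matches describe the letters of the windows and are not evidence of binding.

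**Figure D5:**
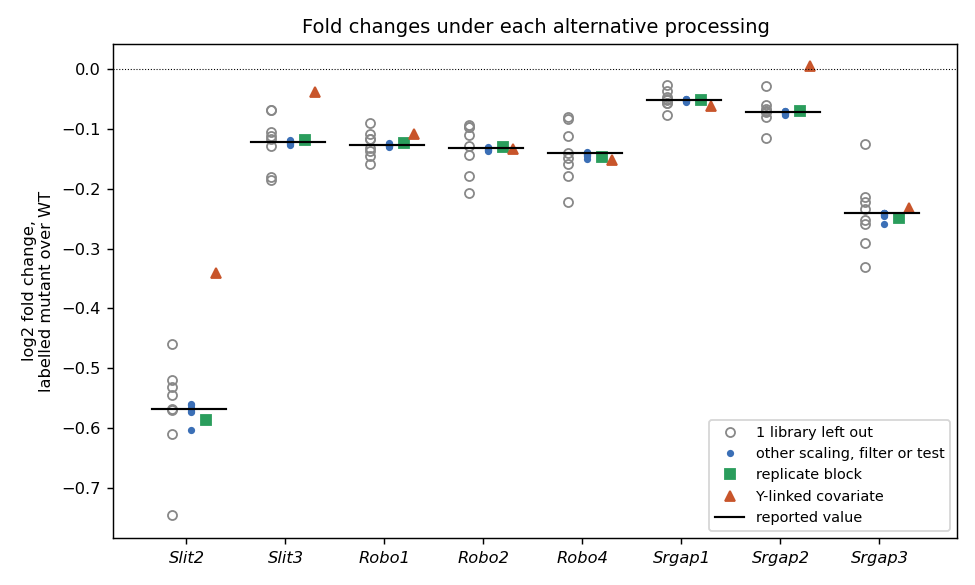
Log2 fold change (labelled-mutant over WT, y axis) of each tested member under 18 alternative processings: 8 with 1 library left out (open circles), 8 with another scaling, filter or test (blue points), 1 with the replicate number as a block (green squares) and 1 with the Y-linked covariate (orange triangles), with the reported value as a line. The lowest value is -0.75 for Slit2 without labelled-mutant library 4, and the only value above 0 is 0.0049 for Srgap2 with the covariate.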

How the data were processed

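RNA-seq of mouse ventricles was performed by the authors on 4 WT and 4 labelled-mutant libraries (poly(A) RNA, directional kit, 60-base single reads). The deposited values are RSEM expected counts per Ensembl gene (release 91), unscaled. The submitters' processing notes name cutadapt, RSEM 1.3.1 and GRCm38. The aligner and the strand setting are not given in the sources used here. RSEM divides reads shared between genes, and 18.1% of values were not whole.

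Expected counts were rounded to whole numbers for testing. Genes were filtered by edgeR's filterByExpr, scaled by TMM and tested with edgeR 4.0.16 quasi-likelihood (R 4.3.3) with Benjamini-Hochberg adjustment. CPM are expected counts divided by the TMM-scaled library size. Totals were 16761763 to 24144272, and no pair of libraries agreed within counting noise. Symbols matched 53274 of 53465 genes. Lengths, coordinates and 3′ UTRs were from GENCODE on GRCm38. Intervals are at 95%.

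The members and gene lists were chosen with earlier results of these data known. From the pathway list, the text names, in each of 3 roles, the 2 genes with the highest level per length and the 2 with the lowest p. For likeness, it names the 3 genes with the highest centred r per member, among genes with a mean log2 CPM of at least 1, model numbers left out. Alternatives were other scalings (RLE, upper quartile, totals), filters, tests (likelihood ratio, DESeq2 1.42.0, limma 3.58.1 voom), a replicate block, a Y-linked covariate and leaving out each library. Tests were tested on simulated data. Of the other marker lists, fibroblast genes were lower in 6 of 8 (median log2 fold change -0.06), mural in 6 of 7 (-0.15), epicardial in 0 of 6 (0.1), cardiomyocyte in 3 of 6 (0.03) and atrial in 4 of 4 (-0.27). In these lists Nkx2-5 (0.21, edgeR adjusted p = 0.0194) and Kcnj3 (-0.46, edgeR adjusted p = 0.0261) passed, and no other marker did.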

Additional observations from a re-analysis of the deposited data

Results flagged for a closer look

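In 3 of 98 groups of 4 libraries, 1 library lay apart from the others by Dixon's ratio of gap to range at its 95% critical value, where chance gives about 4.9. No flag fell on a Slit, Robo or srGAP gene. Sdc1, a heparan sulfate proteoglycan, had a ratio of 0.835 in WT, with library 3 at 45.8 CPM and the others at 41.4 to 42.1 CPM. Rac1, a GTPase with 51.4% of its exonic bases shared with Daglb on the opposite strand, had a ratio of 0.927 in WT, with library 3 at 274 CPM and the others at 265 to 266 CPM. Ext2 had a ratio of 0.834 in labelled-mutant libraries, with library 4 at 75.8 CPM and the others at 71.1 to 71.9 CPM.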

How the results depend on the processing

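The count of all genes passing was 81 and became 338 with no filter, 242 with the likelihood ratio test, 198 with DESeq2 and 16 with the Y-linked covariate. It was 11 to 142 with 1 library left out, lowest without labelled-mutant library 3 and highest without library 4 of that group. Among the members, 1 (Slit2) passed with no filter, with the likelihood ratio test and with the replicate block, and 0 to 1 with 1 library left out (1 without labelled-mutant library 4). In the pathway list, 1 gene (Sdc4) passed with no filter, with the likelihood ratio test and with DESeq2, and 0 to 1 with 1 library left out (again without labelled-mutant library 4). Slit2 was below 0 in 18 of 18 alternatives, from -0.75 to -0.34, with an adjusted p from 4.64e-07 (no filter) to 0.293 (Y-linked covariate). With no filter its SE was 0.0721, beside 0.126 in the main fit. The log2 fold change of Srgap2 reversed to 0.0049 with that covariate, and the cause was not tested. The other 6 tested members were below 0 in each of the 18, and Nrg1 was at 0.27 to 0.4. Of the pathway genes, 14 changed sign in some alternative.

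Under the replicate block 93 genes passed, and Slit2 was at -0.59. Same-numbered libraries had correlations of deviations of 0.0907, 0.0477, 0.0501 and 0.118, not all over 0.1, the level required here for a pairing. The main fit had no block. Whether same-numbered libraries belong together is not given by the labels and is not settled by these values. Every library correlated best with its own number, a hint from the data and not from the design. Slit1 and Robo3 were too low to compare at this depth.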
